A study of Mus musculus with 6 samples.

Results

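Small nucleolar RNAs and the related small Cajal body RNAs were taken as every row of the table whose symbol starts with Snord, Snora or Scarna, which gave 119 of 24411 rows. Of these, 74 were Snord rows (box C/D RNAs), 36 Snora rows (box H/ACA RNAs) and 9 Scarna rows (small Cajal body RNAs). Total RNA of Achilles tendons was sequenced from C57BL/6 mice at 18 weeks of age, in 3 libraries labelled WT and 3 labelled Scx-Cre/Piezo1 GOF. GOF stands for gain of function: an overactive form of Piezo1, a cation channel opened by mechanical force, is combined with a Cre recombinase driven by Scx, a transcription factor gene of tendon cells, which directs the allele to cells with a history of Scx expression. For the WT mice the labels give no other allele, and they do not say that the libraries came from separate animals, so each p-value rests on the spread among the libraries alone, which may be technical.

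Most small nucleolar RNAs are guides: each pairs with a stretch of another RNA and brings an enzyme to a single nucleotide of it. Box C/D RNAs carry the methyltransferase fibrillarin and direct methylation of the ribose, mainly in ribosomal RNA, and box H/ACA RNAs carry the pseudouridine synthase dyskerin. Small Cajal body RNAs have the same boxes and guide the modification of spliceosomal RNAs in the Cajal body, a nuclear compartment. In mammals most of them are cut out of introns of a host gene after splicing, many hosts encoding ribosomal proteins or translation factors, while a few members, such as Snord118 (the U8 RNA of ribosomal RNA processing), have genes of their own.

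The sequences of the 7 members with the most counts are shown first because they hold most of the members' counts, followed by 4 that serve for contrasts made later. Capitals mark TGATGA in the first 20 bases (box C) and CTGA in the last 20 (box D) of box C/D RNAs, and ACA in the last 10 bases of the others, each searched on the RNA's own strand. Sequences are the transcripts of GENCODE mouse release M21 on mm10, and a member printed without capitals held none of these letters in its window.
Scarna13: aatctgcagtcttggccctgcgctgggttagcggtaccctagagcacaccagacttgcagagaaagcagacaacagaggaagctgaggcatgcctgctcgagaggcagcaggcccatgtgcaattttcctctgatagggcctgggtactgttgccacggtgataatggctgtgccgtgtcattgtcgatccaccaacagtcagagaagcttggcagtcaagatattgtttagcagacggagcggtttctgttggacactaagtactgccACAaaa
Snora81: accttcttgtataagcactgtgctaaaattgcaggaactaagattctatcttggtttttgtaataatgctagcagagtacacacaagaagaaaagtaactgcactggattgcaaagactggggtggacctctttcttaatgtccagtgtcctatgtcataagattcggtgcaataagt
Snora23: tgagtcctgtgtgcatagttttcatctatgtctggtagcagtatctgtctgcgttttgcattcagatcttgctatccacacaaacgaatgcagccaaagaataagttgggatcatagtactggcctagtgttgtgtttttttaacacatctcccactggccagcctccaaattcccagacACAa
Snora28: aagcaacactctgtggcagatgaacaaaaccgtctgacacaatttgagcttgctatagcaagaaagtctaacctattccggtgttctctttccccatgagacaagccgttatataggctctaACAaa
Snord17: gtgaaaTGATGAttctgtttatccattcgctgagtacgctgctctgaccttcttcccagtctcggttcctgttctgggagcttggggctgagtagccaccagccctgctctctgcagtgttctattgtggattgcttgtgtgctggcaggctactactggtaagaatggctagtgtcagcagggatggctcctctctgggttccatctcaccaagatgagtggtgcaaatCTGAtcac
Snord15b: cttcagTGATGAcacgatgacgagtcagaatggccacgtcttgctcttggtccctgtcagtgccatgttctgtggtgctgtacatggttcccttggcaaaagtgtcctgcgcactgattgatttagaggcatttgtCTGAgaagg
Snord22: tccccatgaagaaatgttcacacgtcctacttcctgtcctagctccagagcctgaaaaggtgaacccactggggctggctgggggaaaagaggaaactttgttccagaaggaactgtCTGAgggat
Snord15a: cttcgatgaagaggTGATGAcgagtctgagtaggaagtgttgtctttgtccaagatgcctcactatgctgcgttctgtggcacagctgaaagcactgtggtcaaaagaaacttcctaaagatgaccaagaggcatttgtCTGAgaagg
Snord16a: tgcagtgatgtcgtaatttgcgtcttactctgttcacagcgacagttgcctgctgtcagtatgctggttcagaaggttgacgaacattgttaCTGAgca
Snora31: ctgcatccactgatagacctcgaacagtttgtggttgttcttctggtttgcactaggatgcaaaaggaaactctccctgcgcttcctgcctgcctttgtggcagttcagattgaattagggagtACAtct
Snord14c: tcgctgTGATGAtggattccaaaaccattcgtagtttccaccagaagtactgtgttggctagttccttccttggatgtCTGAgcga

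Scarna13 lies in an intron of the noncoding gene Snhg10 at chr12:105031075-105031349 (minus strand), and Snora81 within Eif4a2, a translation initiation factor gene, at chr16:23110756-23110933 (plus strand). Snora23 lies in an intron of the nuclear import gene Ipo7 (chr7:110046364-110046547, plus strand), Snora28 within the initiation factor gene Eif5 (chr12:111540941-111541067, plus strand) and Snord17 in an intron of the sorting nexin gene Snx5 (chr2:144265979-144266216, minus strand). Snord15a (chr7:99482785-99482932) and Snord15b (chr7:99479563-99479707) share the ribosomal protein gene Rps3 on the minus strand, and Snord22, known as U22, lies within the noncoding gene Snhg1 (chr19:8725866-8725991, plus strand). Snord16a lies within Rpl4 (chr9:64175423-64175521), Snora31 in an intron of Tpt1 (chr14:75847905-75848034) and Snord14c within Hspa8 (chr9:40803583-40803668), all on the plus strand. Of the members with a sequence, CTGA was in the end window of 71 of 73 Snord RNAs (97.3%) and 3 of 34 Snora RNAs (8.82%), and TGATGA in the start window of 46 of 73 (63.0%) and 0 of 34. ACA was in the end window of 32 of 34 Snora RNAs (94.1%) and 7 of 73 Snord RNAs (9.59%). The 9 Scarna RNAs are mixed, with both Snord letters in 4 and the Snora letters in 4. The letters at the 3′ end separated most members of both nucleolar classes as their names do.

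Few of these RNAs were seen at all. Of the 119 members, 46 (38.7%) had a count in at least 1 library and 73 were at 0 in all 6. By class, 20 of 74 box C/D RNAs (27.0%), 23 of 36 box H/ACA RNAs (63.9%) and 3 of 9 Cajal body RNAs (33.3%) had a count. Of all 24411 rows, 18408 had one. Together the members took 662.76 estimated counts of 65393851 over the 6 libraries, and 24 of the 46 had a total of 3 counts or fewer. Only 6 members, namely Scarna13, Snora81, Snora23, Snora28, Snord17 and Snord15b, had a count in every library. The 7 members with the most counts held 77.7% of the members' counts, and Scarna13 and Snora81 alone held 47.4%. A member at 0 over all 6 libraries is limited to 0.0459 counts per 1000000 counts (CPM of the plain library total) by the 3 counts that a 0 allows, and in single libraries the limit lay between 0.175 and 0.369 CPM, for counting error only.

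Longer RNAs had a count more often than shorter ones. By the lengths in GENCODE, 5 of 37 members under 80 bases had a count (13.5%), against 11 of 33 between 80 and 119 bases (33.3%), 24 of 40 between 120 and 149 (60.0%) and 6 of 8 of 150 bases or more (75.0%). The 8 longest held 428 of the 662.76 counts, and the 37 shortest held 7. The same order stood within the box C/D class, where 5 of 35, 11 of 33, 3 of 4 and 1 of 1 had a count. Median lengths were 80 bases for box C/D and 132 bases for box H/ACA RNAs, so class and length are tied. The 2 exceptions among the longest were Scarna2 (414 bases) and Scarna10 (325 bases), both at 0. RefSeq, which places 118 of the members, gives them 61 and 71 bases, and by its lengths 8 of 57 members under 80 bases (14.0%) and 7 of 7 of at least 150 bases had a count. Which annotation the counts rest on is not given in the sources used here, nor is the length of the reads, and the part of either in these values was not tested. Rows of microRNA precursors showed the same order by RefSeq length, with a count in 49 of 555 under 80 bases (8.83%), 92 of 557 between 80 and 119 (16.5%) and 20 of 71 between 120 and 149 (28.2%).

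**Figure D1:**
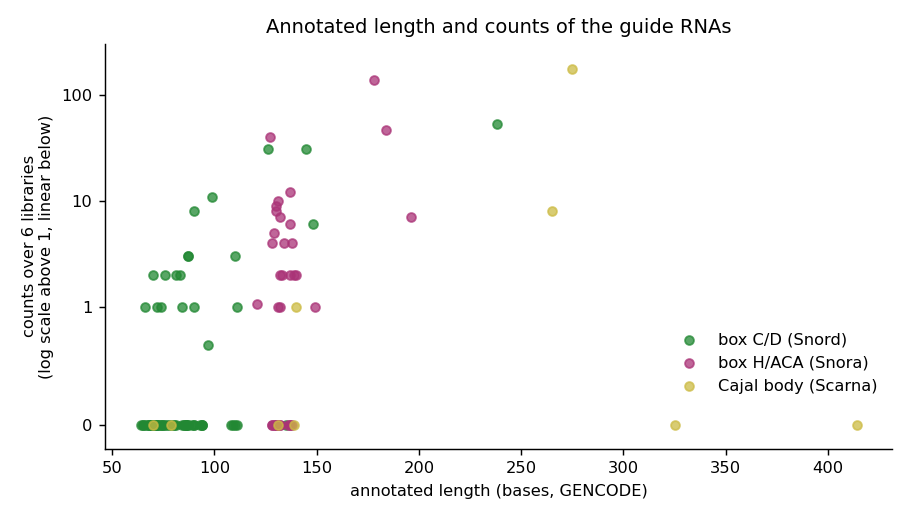
Each point is a guide RNA, by its GENCODE length in bases and its summed counts over the 6 libraries (log scale above 1 count, linear below), coloured by class. Members under 80 bases lie almost all at 0, while those with over 30 counts are between 126 and 275 bases long.

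Level was next compared per length, as CPM, now of the scaled library size, per kilobase. This division does not by itself remove the order by length shown above. The 37 members under 80 bases held 7 counts and the 8 of at least 150 bases held 428. Whether values per kilobase can be compared between RNAs of unlike length, hosts included, was not tested. Snora81, at 12.05 CPM per kilobase over the 6 libraries, and Scarna13, at 9.22, were the highest members. Snora28 (4.97), Snora23 (3.87), Snord22 (3.84), Snord17 (3.60) and Snord15b (3.37) followed on the same scale, and the median of the 46 members with a count was 0.485. Other short noncoding RNAs in the same libraries lay on both sides of these levels. The lengths of these other RNAs are from RefSeq and those of the members from GENCODE. RefSeq gives a shorter length for 95 of the members, so the levels are not on exactly the same scale. Rmrp, the RNA of RNase MRP that cleaves pre-ribosomal RNA, was at 260 CPM per kilobase, 28.2 times the level of Scarna13, and Rpph1, the RNA of RNase P that trims transfer RNA precursors, was at 168. Rnu12, an RNA of the minor spliceosome, was at 20.98 CPM per kilobase, above Snora81, while Rnu11 of the same spliceosome was at 3.69 and the vault RNA Vaultrc5 at 0.579. Terc, the telomerase RNA, which ends in a box H/ACA domain but falls outside the symbol rule, was at 0 counts in all 6 libraries.

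A count on an intronic guide RNA can come from the mature RNA or from unspliced host transcript, and gene counts cannot tell the sources apart. GENCODE places 111 of the 119 members within a host gene on the same strand (84 hosts), and 108 have a host with a value in the table. Per kilobase, 41 of the 43 detected members with a host value were below their host, whose length is that of all annotated exons merged, and Scarna13 and Snord22 were above theirs. Scarna13 was at 9.22 CPM per kilobase and Snhg10 at 5.75. Snord22 was at 3.84 and Snhg1 at 1.85. Snord22 and Snora81 lie within an annotated exon of their host, so the host length includes their own bases. Snora81 (12.05) lay below Eif4a2 (17.8), and Snora31 (0.966) further below Tpt1 (559), the gene of a translationally controlled tumour protein.

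**Figure D2:**
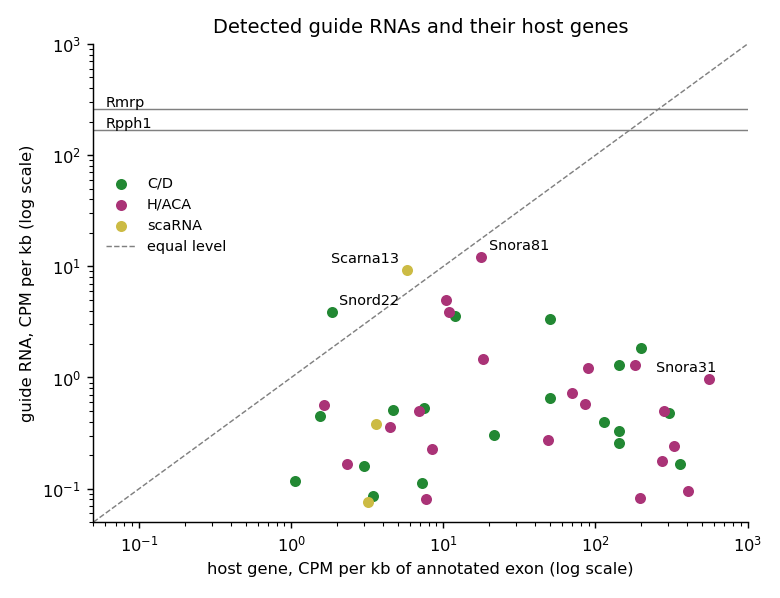
Detected guide RNAs (vertical axis, CPM per kilobase, log scale) against their host genes (horizontal axis, CPM per kilobase of annotated exon, log scale). Horizontal lines are the levels of Rmrp and Rpph1, by RefSeq length. Scarna13 and Snord22 are the 2 points above the dashed line of equal level.

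A host with many counts could hold a member at 0. Snord37 had 0 counts although its host, the elongation factor gene Eef2, had 127558, and Snord14c and Snord14d had 0 within the heat shock cognate gene Hspa8, which had 65268. Both RNAs of Nop56, itself a core protein of box C/D particles, were at 0, and so were both RNAs of Nop58. Of the hosts, 21 held more than 1 member. Rpl13a (19835 counts), a ribosomal protein gene, held Snord35a with 8 counts, Snord32a with 2, Snord33 with 1 and Snord34 with 0, and Rpl23a (21640 counts) held Snord42a, Snord42b and Snord4a, all at 0. Rps3 carried Snord15b with 31 counts and Snord15a with 6, although they are 145 and 148 bases long. Eif4a2 held Snora81 with 138 counts and Snord2 with 0. Members that lie within an annotated exon of any transcript of their host had a count in 22 of 43 cases (51.2%), and wholly intronic members in 20 of 60 (33.3%). The median level of the hosts was 94.8 CPM for members with a count and 60.5 CPM for members at 0.

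Guide RNAs known from brain had no counts here. Snord116, Snord116l1, Snord116l2 and Snord64 of the imprinted region tied to Prader-Willi syndrome were at 0 in all 6 libraries, as was Snora35, which lies in an intron of the serotonin receptor gene Htr2c, itself at 0. Snhg14, the long host transcript of Snord116l1 and Snord116l2, had 118 counts. Of the 5 neuron markers, 0 had enough counts to be tested. Syt1 was at 0 in every library. Elavl4 had 8 counts, Snap25 12, Rbfox3 15 and Tubb3 31, of which 18 were in WT replicate 1. Of all box C/D RNAs, 54 of 74 were at 0 as well.

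**Figure D3:**
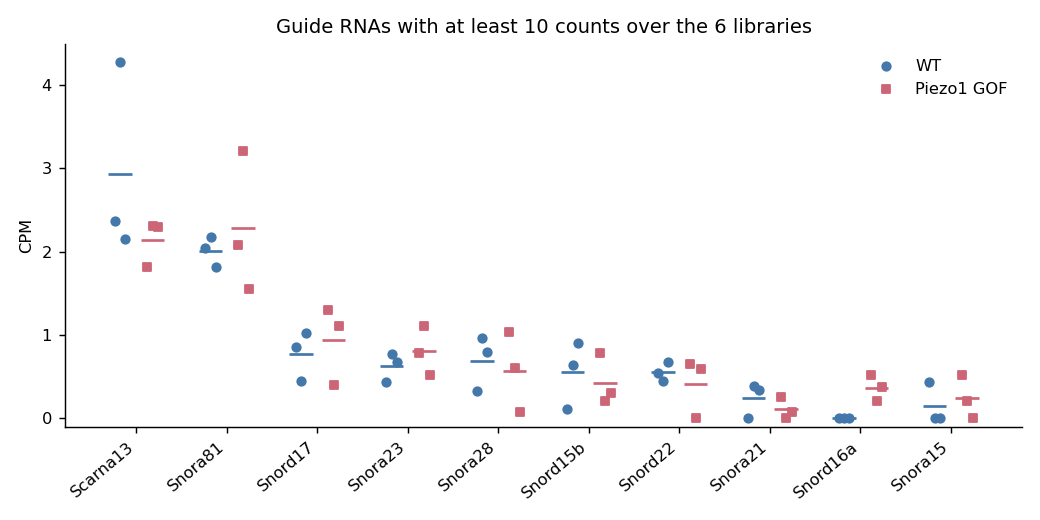
CPM of the 10 guide RNAs with at least 10 counts over the 6 libraries, with 3 WT (circles) and 3 Piezo1 GOF libraries (squares) and a line at each mean. The groups overlap for each of them except Snord16a, which is at 0 in WT.

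Between the genotypes, summed levels of the 3 classes overlapped. Box C/D RNAs took 17, 29 and 27 counts in the WT libraries and 30, 16 and 44.68 in the Piezo1 GOF libraries, each in replicate order, or 2.14 ± 0.539 and 2.997 ± 1.07 CPM of the plain totals (SD, n = 3 each). Piezo1 GOF replicates 1 and 3 were the highest and replicate 2 lay among the WT libraries. Box H/ACA RNAs took 40, 80 and 36.08 counts in WT and 42, 64 and 52 in Piezo1 GOF, or 4.34 ± 0.589 and 5.45 ± 1.49 CPM, and here Piezo1 GOF replicate 2 was the highest. Cajal body RNAs took 23, 74 and 20 counts in WT and 14, 23 and 31 in Piezo1 GOF, or 3.01 ± 1.17 and 2.24 ± 0.449 CPM, with WT replicate 2 above all other libraries. The number of members with a count was 20, 22 and 14 in WT and 19, 19 and 28 in Piezo1 GOF, at total counts of 8519513, 17180856 and 9869028 and of 8131527, 9061268 and 12631659.

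**Figure D4:**
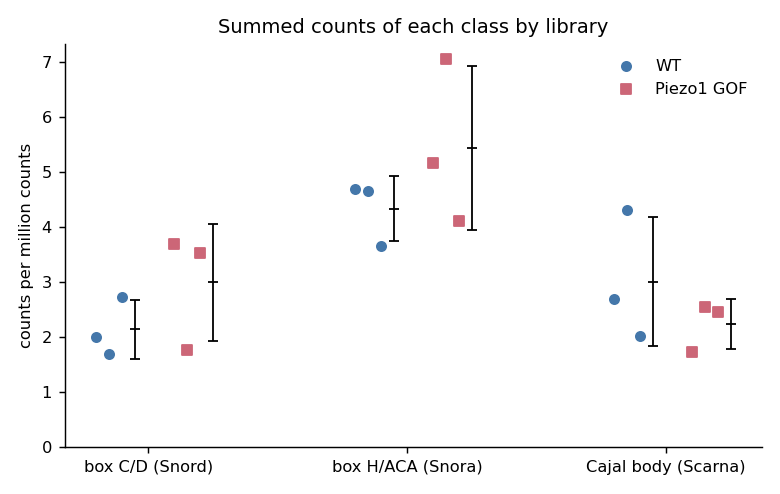
Summed counts of each class as CPM of the plain totals, in 3 WT (circles) and 3 Piezo1 GOF libraries (squares), with mean and SD beside each group in black. In each class the libraries of the genotypes overlap.

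Only Scarna13 and Snora81 had enough counts to be tested, and neither passed. The quasi-likelihood test of edgeR, with p adjusted by Benjamini-Hochberg, called 2 of 13466 genes (0.0149%), both of them higher and 0 lower, and 0 of the 2 tested members. Neither member had an unadjusted p under 0.05, and DESeq2 also called 0 of them, where it called 924 of 13430 genes with an adjusted p (6.88%). Scarna13 had 2.36, 4.28 and 2.15 CPM in the WT libraries and 1.82, 2.31 and 2.30 CPM in the GOF libraries. WT replicate 2 stood apart, and the other 5 libraries lay within 1.82 and 2.36 CPM. Its log2 fold change, Piezo1 GOF over WT, was -0.46 ± 0.48 (SE; edgeR adjusted p = 0.616), and -0.074 without WT replicate 2. Its host Snhg10 had 2.26, 3.90 and 3.85 CPM in the WT libraries and 1.69, 4.11 and 2.45 CPM in the GOF libraries, a log2 fold change of -0.27 ± 0.50 (edgeR adjusted p = 0.786). Snora81 had 2.04, 2.17 and 1.81 CPM in the WT libraries and 2.08, 3.21 and 1.56 CPM in the GOF libraries. The mutant libraries spanned the WT range on both sides. Its log2 fold change was 0.18 ± 0.49 (edgeR adjusted p = 0.867), and -0.13 without Piezo1 GOF replicate 2. Eif4a2 had a log2 fold change of 0.11 ± 0.25 (edgeR adjusted p = 0.836) and was also highest in Piezo1 GOF replicate 2, at 134 CPM against 80.4 to 99.6 CPM in the other 5.

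With a minimum count of 5, 7 members were tested by edgeR and 0 passed, where 0.014% of 14319 genes did, with a smallest adjusted p of 0.634. Log2 fold changes were 0.29 ± 0.74 for Snord17, 0.32 ± 0.70 for Snora23, -0.37 ± 0.94 for Snora28, -0.43 ± 0.95 for Snord15b and -0.40 ± 1.01 for Snord22 (SE), so each SE was wider than the value. Ipo7, the host of Snora23, had 101, 198 and 203 CPM in the WT libraries and 102, 50.3 and 79.3 CPM in the GOF libraries, a log2 fold change of -1.12 ± 0.35 (edgeR adjusted p = 0.168), which DESeq2 called (adjusted p = 0.0378). Snora23 itself, with 0.430, 0.766 and 0.679 CPM in the WT libraries and 0.780, 1.10 and 0.519 CPM in the GOF libraries, overlapped between the genotypes. It also lies opposite 1600010M07Rik on the other strand, and whether strand was used in counting is not given in the sources used here, so its value is uncertain. The other 4 hosts of this group, Snx5 (0.070 ± 0.20), Eif5 (-0.073 ± 0.20), Rps3 (0.10 ± 0.23) and Snhg1 (0.21 ± 0.36), had log2 fold changes within their SE.

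In 4 of the 46 members with a count the libraries of the genotypes did not overlap, 2 higher and 2 lower in Piezo1 GOF. Among the 18408 genes with a count, 11.1% did not overlap and were higher and 9.81% lower. A lack of overlap needs a count in all 3 libraries of a genotype. Of the 46 members, 17 had a count in 1 library only, so these shares allow no conclusion about the members. Snord16a had 0 counts in all WT libraries and 4, 2 and 5 in Piezo1 GOF. That was 0.369 CPM of the plain totals, 4.37 times the level of the 3 counts over the WT libraries that a 0 allows. This ratio and those below take the observed counts as exact, so they are not lower limits. The 4 members were also picked by their lack of overlap. Rpl4, its host, had a log2 fold change of -0.058 ± 0.27 (edgeR adjusted p = 0.924). Snora31 had 0 counts in WT and 1, 4 and 3 in Piezo1 GOF, 3.18 times the same floor. Its host Tpt1 had a log2 fold change of -0.34 ± 0.40 (edgeR adjusted p = 0.666). Scarna6, which lies in the autophagy gene Atg16l1, had 1, 6 and 1 counts in WT and 0 in Piezo1 GOF. Its WT level was 2.24 times the floor over the Piezo1 GOF libraries, and its host had 0.039 ± 0.21. Snora64, within Rps2, had 1, 1 and 2 counts in WT and 0 in Piezo1 GOF, with a WT level 1.12 times that floor. With no count filter, edgeR tested these 46 members among 18373 genes in 6 libraries, and 2, Snord16a and Snora31, had an unadjusted edgeR p under 0.05 and were higher, with 0 lower, against 8.52% and 8.5% of all genes. None passed after adjustment (smallest adjusted p = 0.223), where 0.898% of genes did.

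Summed levels of some cell type markers separated the genotypes, although edgeR called 0 markers of any list after adjustment. A muscle covariate was fitted, but the part of any cell type in the members' values was not tested. All 10 tendon markers had counts in every library and took 0.355% to 1.68% of counts in WT and 3.32% to 5.99% in Piezo1 GOF. The 12 skeletal muscle markers took 3.17% to 4.996% and 0.963% to 2.84%, the 8 macrophage markers 0.0141% to 0.0230% and 0.0547% to 0.0751%, and the 5 erythroid markers 0.00101% to 0.00393% and 0.00231% to 0.00767%, WT first. These summed shares overlapped between the genotypes for the erythroid list and not for the other 3. At an unadjusted p under 0.05, all 10 tendon and all 8 macrophage markers were higher, where 10.2% of all tested genes were higher and 9.59% lower. Of the 12 muscle markers, 0 reached it in either direction, 11 had negative values and Pvalb a positive one. In such bulk samples, fewer cells of a type and less RNA per cell cannot be told apart. With the muscle score as a covariate, the log2 fold change of Scarna13 was -0.30 and that of Snora81 -0.053. Since the muscle shares did not overlap between the genotypes, these fits cannot tell muscle content from genotype.

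None of the proteins that make up the guide particles passed the test. Of the 5 box C/D proteins in the table, 0 were called in either direction. All 5 had negative log2 fold changes, with a median of -0.13 against -0.0045 for all tested genes. Those of Fbl (-0.0039 ± 0.22), Nop58 (-0.022 ± 0.33) and Nop56 (-0.13 ± 0.24) lay within their SE. Fbl, the methyltransferase fibrillarin, averaged 20.98 ± 4.17 CPM in the WT and 20.98 ± 1.48 CPM in the GOF libraries (SD, n = 3 each). Rrp9, a protein of the U3 particle, was at 18.1 ± 3.54 and 12.9 ± 2.48 CPM, a log2 fold change of -0.49 ± 0.26 (edgeR adjusted p = 0.318), and Nhp2l1, which binds the kink of box C/D RNAs, had -0.22 ± 0.21. Of the 4 box H/ACA proteins, 0 were called, with a median of 0.26. In this group 2 did not overlap and were higher and 0 lower, against 13.6% and 12.1% of all tested genes. Gar1 had the only negative value (-0.43 ± 0.55). Dkc1, the pseudouridine synthase dyskerin, was at 11.3 ± 0.145 and 12.5 ± 0.851 CPM, without overlap. Nop10 had 13.6, 11.05 and 14.3 CPM in the WT libraries and 15.5, 31.8 and 14.5 CPM in the GOF libraries, without overlap but with Piezo1 GOF replicate 2 far above the rest (0.67 ± 0.34; edgeR adjusted p = 0.299).

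Of 13 assembly factors, 0 were called, with a median log2 fold change of -0.11. At an unadjusted p under 0.05, 0 were higher and 1 lower, against 10.2% and 9.59% of all tested genes. In this group 3 did not overlap and were lower and 0 higher, against 12.1% and 13.6%. Tcof1, the nucleolar protein treacle, had 18.3, 26.8 and 19.5 CPM in the WT libraries and 15.9, 12.1 and 13.3 CPM in the GOF libraries (-0.65 ± 0.25; edgeR adjusted p = 0.209). Nufip1, a bridging factor of box C/D assembly, had 9.45, 11.2 and 8.60 CPM in the WT libraries and 5.59, 4.01 and 7.71 CPM in the GOF libraries (-0.75 ± 0.33; edgeR adjusted p = 0.254), and Znhit6, another assembly factor, had 0.74 ± 0.36. Of 10 genes of the Cajal body and of end maturation, 0 were called, and their median was 0.28. Gemin5, a subunit of the SMN complex, had -0.43 ± 0.22 and the deadenylase gene Parn 0.49 ± 0.26.

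**Figure D5:**
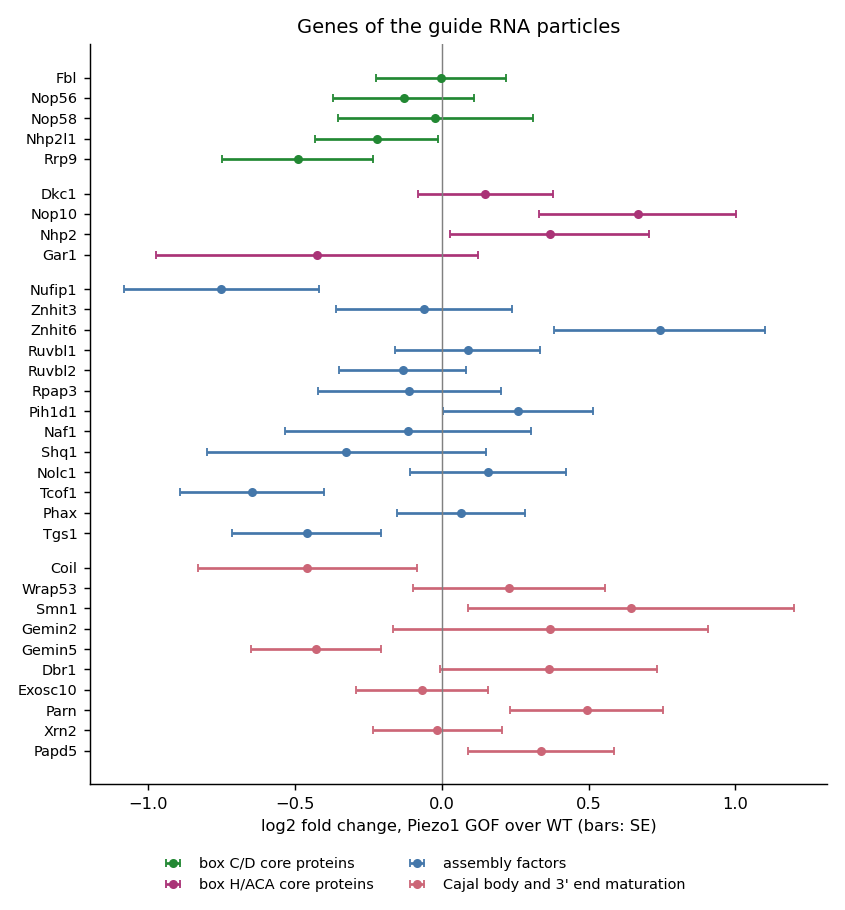
Log2 fold changes (Piezo1 GOF over WT) of 32 genes of the guide RNA particles, their assembly and the Cajal body, with SE as bars. Values lie between -0.75 for Nufip1 and 0.74 for Znhit6, and none passed the test.

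Host genes showed no call either. Of 78 tested hosts of the members, 0 passed. An unadjusted p under 0.05 was reached by 4 higher and 4 lower hosts, where 10.2% and 9.59% of all tested genes did so. Without overlap, 8 were higher and 8 lower, where 13.6% and 12.1% of all tested genes were, with a median log2 fold change of 0.065. A separate list, drawn up as noncoding hosts, also held genes that host no member here, among them Snhg11, Meg3 and Taf1d. Of its 20 tested genes, 0 passed, and 15 had positive and 5 negative values with a median of 0.51. An unadjusted p under 0.05 was reached by 4 higher and 0 lower genes, where 10.2% and 9.59% of all tested genes did so. In this list 3 genes were higher and 1 lower without overlap, against 13.6% and 12.1%. Snhg18 had 1.47 ± 0.44 (edgeR adjusted p = 0.162) with 30.2, 9.13 and 15.95 CPM in the WT libraries and 34.5, 73.7 and 44.2 CPM in the GOF libraries. DESeq2 on the same genes called it (adjusted p = 0.0284), and so did edgeR without WT replicate 1 (adjusted p = 0.0490). Snhg11 had 1.30 ± 0.56 and the imprinted gene Meg3 0.63 ± 0.26. Snhg8 had 1.38 ± 0.59, with 3.01, 4.02 and 4.30 CPM in the WT libraries and 3.64, 19.8 and 6.08 CPM in the GOF libraries, and its value was 0.40 without Piezo1 GOF replicate 2 and 0.58 with the muscle covariate. Gas5, the best known noncoding host, averaged 50.05 ± 6.40 CPM in the WT and 69.7 ± 20.9 CPM in the GOF libraries (0.48 ± 0.25; edgeR adjusted p = 0.320), while Snord47 within it was at 0 in all 6 libraries. Rmrp (0.22 ± 0.23) and Rpph1 (-0.22 ± 0.23), which need no host, averaged 66.3 ± 7.57 and 58.8 ± 9.48 CPM in the WT and 77.0 ± 18.3 and 50.4 ± 10.3 CPM in the GOF libraries.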

How the data were processed

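Achilles tendon RNA was purified with a Direct-zol MicroPrep kit, and RamDA-seq chemistry with the mouse primer set gave the libraries, per the labels' protocols. How small RNAs pass the column and the library steps was not measured. The authors deposited an expected count per gene and sample, not scaled for depth or length. The tools named in the submitters' processing notes are bcl2fastq, STAR, RSEM and edgeR (no versions, no roles), and the build named there is mm10. Not given in the sources used here were the annotation, read length and strand setting. Of the 119 members, 2 had a value that was not whole, against 7.80% to 8.88% of all values per library. Replicates differed beyond sampling noise (chi-square per degree of freedom 41.5 to 143).

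Expected counts were rounded to whole numbers, filtered with filterByExpr (minimum count 10; 13466 genes), scaled by TMM (factors 0.897 to 1.10) and compared with edgeR's two-sided quasi-likelihood test at an adjusted p of 0.05. CPM uses the TMM-scaled library sizes, except for class sums and floors, which use the plain totals. The common dispersion of 0.113 with 3 libraries per genotype sets the precision, and the chain was tested on simulated counts. Floors cover counting error only, and the labels name no molecular identifiers. SE and SD include the spread among the libraries. Coordinates, lengths and hosts are from GENCODE M21, where 116 members matched once, and RefSeq GRCm38.p6. A host is a gene on the same strand that contains the member, protein-coding genes first, and older symbols were matched through RefSeq synonyms. Snord116l1 and Snord116l2 have identical sequences.

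The members and lists were chosen with earlier results of these data known. The rule for names took tested members, particle proteins and hosts, and members named beyond the 2 tested ones were chosen after their values were seen. Alternatives were other scalings, other filters, DESeq2, a replicate block, a muscle covariate and leaving out each library. Software was R 4.3.3, edgeR 4.0.16, limma 3.58.1, DESeq2 1.42.0, Python 3.11.15, numpy 2.4.6, pandas 2.3.3 and matplotlib 3.10.9.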

Additional observations from a re-analysis of the deposited data

How the results depend on the processing

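The count of called members was 0 under each alternative. Genes called over all genes numbered 2, and 165 with no filter, 924 by DESeq2 on the same genes, 0 with the replicate block, 0 with the muscle covariate and between 0 and 228 without a single library, where 228 was without WT replicate 1. The cause was not tested. Same-numbered libraries correlated at -0.207, -0.137 and -0.0526 in their deviations from the group means, where all pairs lay between -0.207 and 0.165. With so few libraries these values cannot exclude a pairing by replicate number. The replicate block changed no call of a member. The median of box H/ACA members, which is Snora81 alone, was 0.18, between -0.13 and 0.40 without a single library. No box C/D RNA passed the count filter, so that class has no median. Fold changes that turned direction with the muscle covariate were those of Snora81 (-0.053), Eif4a2 (-0.11), Rpl4 (0.031) and Snx5 (-0.028). Muscle shares did not overlap between the genotypes, so the covariate cannot tell muscle content from genotype. Without a single library, fold changes lay between -0.13 and 0.40 for Snora81, -0.15 and 0.24 for Eif4a2 and -0.027 and 0.39 for Snhg1 (lowest in each without Piezo1 GOF replicate 2), between -0.16 and 0.14 for Rpl4, -0.54 and 0.10 for Tpt1 (highest in each without WT replicate 2) and -0.013 and 0.18 for Snx5 (lowest without WT replicate 2), between -0.071 (without WT replicate 1) and 0.21 for Atg16l1, and between -0.18 and 0.018 (without Piezo1 GOF replicate 3) for Eif5. None of these had passed the test. Snhg18 passed by DESeq2 and without WT replicate 1, and Ipo7 by DESeq2 (-1.13; adjusted p = 0.0378). Differences of the class sums (GOF minus WT, CPM of the plain totals) kept their direction in the alternatives run for them. These were totals without the rows Rn45s and Lars2, tested members only (box H/ACA and Cajal body RNAs) and leaving out each library. The muscle covariate, the replicate block and other scalings were not applied to these differences. Without a single library they lay between 0.512 (without Piezo1 GOF replicate 1) and 1.47 (replicate 2) for box C/D RNAs, between 0.305 (without Piezo1 GOF replicate 2) and 1.78 (replicate 3) for box H/ACA RNAs, and between -1.27 (without WT replicate 3) and -0.125 (replicate 2) for Cajal body RNAs. Counts limit what can be compared: 24 of 46 members with a count had a total of 3 or fewer, and why so few were counted was not tested.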
